A study of Homo sapiens with 24 samples.

Results

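The comparison described here is MST-312 against no treatment 4 h after release, in P493 cells. It was made from 6 of the 24 arrays of the series, chosen by the treatment and time in their labels: 3 of untreated cells and 3 of cells with MST-312. P493 is a human B cell line that carries a MYC transgene which tetracycline shuts off, so that taking tetracycline away brings MYC back. MST-312 is a small-molecule inhibitor of telomerase, the enzyme that adds DNA repeats to chromosome ends. The series states that cells given MST-312 were kept in it together with tetracycline over 48 h, then moved to medium with MST-312 and without tetracycline, and taken 0, 4, 8 or 24 h later. No source used here says when untreated cells had tetracycline, and an effect of that schedule and of MST-312 cannot be told apart. The replicates are numbered in the labels, which do not call them separate cultures. The p-values measure the spread between arrays of the same group, estimated over all 24 arrays of the series.

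Every value was read from biotin-labelled RNA on Illumina beadchips, on which each probe reports brightness in proportion to its transcript. Levels are log2 intensities after background correction and quantile normalization. A difference is the mean level of 3 MST-312 arrays minus that of 3 untreated arrays, in log2 units with its standard error (SE), so that 1 is a 2-fold change. P-values are two-sided, from limma, adjusted by Benjamini-Hochberg over all 10246 genes tested. Between 16585 and 17557 probes were detected per array at 4 h, and the mean raw intensity lay between 543 and 617. Of the 8 B cell markers with a probe, 7 were detected on all 3 arrays of both groups, CD79A, CD79B, CD22, CD74, MS4A1, EBF1 and HLA-DRA. In bulk RNA, fewer cells that make a transcript and less of it per cell cannot be told apart.

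As background, a B cell that regains MYC leaves rest, builds ribosomes and enters the cell cycle, and MYC does this as a partner of MAX. Several other circuits read out below answer to stress. The eIF2 kinases slow translation and let ATF4 switch on genes for amino acid supply, the ER sensors raise chaperones and degradation factors, and HSF1 raises cytosolic chaperones. Interferon receptors switch on antiviral genes, and CIITA switches on the MHC class II genes by which B cells present antigen.

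MST-312 cells differed from untreated cells at 4 h in the transcripts of most genes tested. At an adjusted p below 0.05, 2716 genes were higher (26.5% of 10246) and 3367 were lower (32.9%), 59.4% together. Counts of list members below are to be read beside these shares. With a difference of at least 2-fold as well, 717 were higher (7.00%) and 1053 were lower (10.3%), 17.3% together. In 1767 of these 1770 genes the arrays of both groups did not overlap, a property that 63.4% of all genes tested had. The median over all genes was -0.04. The balance between rises and falls depends on the scaling: 44.6% of called genes were higher after quantile normalization but 23.6% after median scaling, in which the median of all genes was -0.29. On 75 of the 2-fold higher genes the untreated arrays were all undetected, and on 213 of the 2-fold lower genes the MST-312 arrays were. For these the text states a bound, "at least N-fold". On each undetected array the probe was set to its own signal or to the lowest signal of any detected probe there, whichever was higher, and the mean of these was divided into the mean of the detected group.

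**Figure D1:**
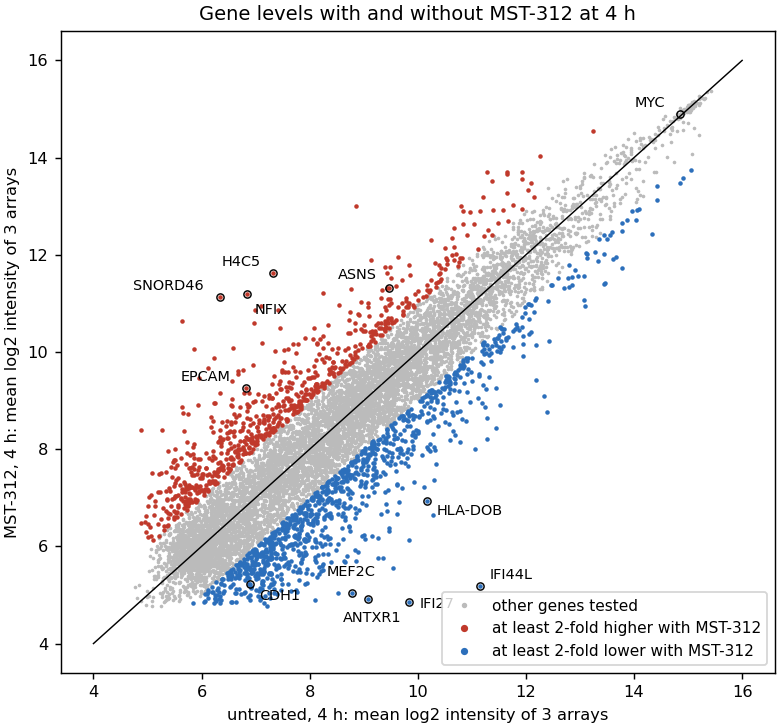
Mean log2 intensity of 3 MST-312 arrays (vertical) against that of 3 untreated arrays (horizontal) at 4 h, 1 point per gene, with the line of equal level. Red points are the 717 genes at least 2-fold higher and blue points the 1053 at least 2-fold lower, and MYC lies on the line.

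The transcripts of MYC itself did not differ measurably. The MYC probe read 14.90, 14.96 and 14.68 in untreated cells against 14.99, 14.88 and 14.83, ranges that overlapped, for a difference of 0.05 ± 0.10 (SE, limma adjusted p = 0.671). A dimmer MYC probe gave 0.10. MAX, its partner, read 8.27, 8.11 and 8.63 against 7.94, 8.19 and 8.19, a difference of -0.23 ± 0.12 (adjusted p = 0.101) that passed the test with median scaling (-0.57) and without replicate 2 of the untreated arrays (-0.34, limma adjusted p = 0.0232). The 3 other MAX probes gave differences from -0.43 to 0.56. Of 9 tested members of the MYC, MAX and MXD network, 1 was higher and 1 lower. The higher one was MXD1, a repressor that takes the place of MYC at MAX, with a difference of 1.29 ± 0.18 (adjusted p = 3.92e-06). Both probes of TERT, the reverse transcriptase of telomerase, and the probe of TERC, its RNA template, were undetected on all 6 arrays, so a difference in them was not measurable.

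Of the 12 largest rises, 7 were of noncoding genes or a pseudogene. LINC00115, a long noncoding RNA, was undetected in untreated cells and at least 27.6-fold brighter with MST-312. SNORD46, a guide RNA of the box C/D class, read 6.36, 6.48 and 6.15 in untreated cells against 11.18, 11.09 and 11.12, groups far apart, and differed by 4.80 ± 0.21 (adjusted p = 1.12e-13). NFIX, a transcription factor of the nuclear factor I family, differed by 4.35, the replication-dependent histone gene H4C5 by 4.31, and AURKAP1, a pseudogene of AURKA, by 4.21. WNT10A, a Wnt ligand, rose by 3.51, REM2, a small GTPase, by 3.62, SLC6A16, an orphan transporter, by 3.65, and the antisense RNA NFYC-AS1 by 3.85. The remaining members of the 12 largest rises were RNA28SN5, a 28S ribosomal RNA probe, at 4.14, LINC01311 at 3.56 and SNORD25 at 3.52.

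Of the 12 genes with the largest falls, 4 were interferon-stimulated genes, IFI44L, IFI27, IFI44 and IFI6. MEF2C, a transcription factor that B cells need for proliferation, read 8.66, 9.09 and 8.62 in untreated cells and was undetected with MST-312, at least 7.45-fold lower. FCRL4, an inhibitory Fc receptor-like protein of memory B cells, fell by 3.63 on the log2 scale (SE 0.24, adjusted p = 9.07e-11). HLA-DOB, which tunes peptide loading in B cells, fell by 3.24. ANTXR1, an anthrax toxin receptor that binds collagen, was at least 9.13-fold lower, and ANXA4, a calcium-dependent phospholipid-binding protein, at least 6.24-fold. IL16, a cytokine precursor, was at least 12.5-fold lower by its brighter probe, while its other probe gave -0.18. The last members were ACY3, an aminoacylase, at -3.61 and EHBP1, an endocytic adaptor, at -3.49.

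**Figure D2:**
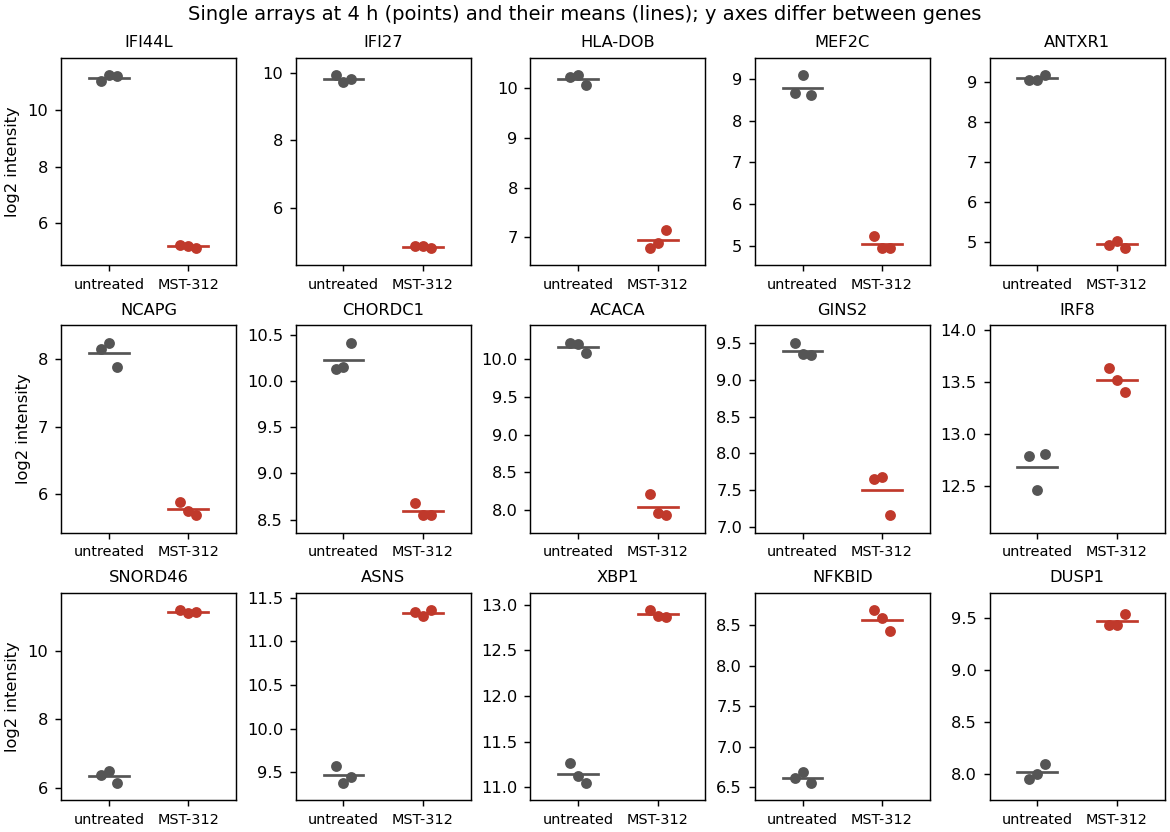
Log2 intensity on each of the 3 untreated (grey) and 3 MST-312 (red) arrays at 4 h for 15 genes, with lines at the group means; the vertical axes differ between genes. In each of the 15 genes all arrays of one group lie above all arrays of the other.

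Interferon-stimulated genes were lower with MST-312. Of 29 tested effectors, 25 fell and none rose, with 4 that did not pass (MX2, IFITM3, RSAD2 and PLSCR1, from -0.35 to -0.07), and 18 fell at least 2-fold. The median over the 29 was -1.45, beside -0.04 over all genes. IFI44L read 11.03, 11.23 and 11.20 in untreated cells against 5.24, 5.19 and 5.13, where no MST-312 array detected it, so that it was at least 38.4-fold lower. A second IFI44L probe gave -1.58. IFI27 read 9.92, 9.73 and 9.83 against 4.88, 4.87 and 4.82, again undetected with MST-312 and at least 15.3-fold lower. IFI6 fell by 3.61 on the log2 scale (SE 0.10, adjusted p = 2.14e-16), with -4.11 by its other probe. MX1, an antiviral GTPase, fell by 3.23 (SE 0.14), and IFIT1, which binds viral RNA, by 2.17 (SE 0.09), with -0.32 by the other IFIT1 probe.

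The regulators of the interferon pathway followed with smaller changes. Of 21 tested, 14 fell, 2 rose and 5 did not pass, with a median of -0.84. IRF9, the DNA-binding subunit of the interferon-activated complex, read 11.32, 11.09 and 10.98 against 9.70, 9.48 and 9.45 and fell by 1.58 (SE 0.11, adjusted p = 8.21e-11). PARP9, of the family of ADP-ribosyltransferases, differed by -2.20, TRIM25, the ligase that activates the RNA sensor RIG-I, by -1.48, and RIGI, the sensor itself, by -1.45. EIF2AK2, the double-stranded RNA kinase PKR, fell by 1.02 (SE 0.13). One of the 2 that rose was IRF8, a transcription factor that B cells make without interferon, at 0.84 ± 0.13 (adjusted p = 8.78e-06).

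Promoter sequence of the interferon genes was set beside these falls. Windows from 250 bases before to 50 after the RefSeq start (GRCh38.p14) were searched on both strands for a core of the interferon-stimulated response element, TTTC, any 2 bases and TTTC again. It was in 19 of the 31 effectors and regulators that fell and had a window (61.3%), in 2 of the 7 tested members that did not fall, in 3.08% of the 8244 windows of genes tested here and in 3.65% of all 27305 windows. The 170 bases before the start of IFI44L (chr1:78620278-78620447, plus strand) and of IFI27 (chr14:94110566-94110735, plus strand) are shown because both fell from a clear signal to below detection, with the matches in capitals. Both windows hold 2 matches, and in IFI44L both lie on the minus strand within a repeated stretch.
IFI44L: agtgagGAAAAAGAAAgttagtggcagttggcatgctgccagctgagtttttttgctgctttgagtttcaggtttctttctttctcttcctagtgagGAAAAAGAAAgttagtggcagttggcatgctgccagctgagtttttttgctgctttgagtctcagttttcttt
IFI27: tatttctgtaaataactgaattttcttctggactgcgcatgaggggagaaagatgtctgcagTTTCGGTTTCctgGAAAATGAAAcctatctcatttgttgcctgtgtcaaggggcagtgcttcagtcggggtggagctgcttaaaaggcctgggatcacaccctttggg

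Antigen presentation by MHC class II was lower throughout. All 15 tested members fell, 12 of them at least 2-fold, with a median of -1.72. CIITA, the master activator of class II genes, read 9.64, 9.25 and 9.36 in untreated cells against 6.93, 7.06 and 6.65, without overlap, and fell by 2.54 (SE 0.18, adjusted p = 2.74e-10). HLA-DOA and HLA-DOB, which together restrain the peptide editor HLA-DM, fell by 3.06 and 3.24, and HLA-DQB1, a chain of a presenting molecule, by 2.37. CD74, the chaperone that holds the peptide groove until loading, fell by 1.31 from a very bright signal, and its other probes gave -2.01 and -1.68. Class I presentation moved less, with 7 of 15 members lower, 1 higher and 7 that did not pass. The 4 that fell at least 2-fold were NLRC5, the class I counterpart of CIITA, at least 3.27-fold lower, and the immunoproteasome subunits PSMB9 (-1.80), PSMB8 (-1.10) and PSMB10 (-1.03).

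Other B cell genes went both ways. Of 26 tested receptor and surface genes, 14 fell, 4 rose and 8 did not pass, with a median of -0.52. TNFRSF17 (BCMA), a survival receptor of plasma cells, read 10.26, 9.99 and 10.11 against 7.16, 7.23 and 7.29 and fell by 2.89 (SE 0.17, adjusted p = 1.79e-11). TNFRSF13B (TACI), its relative, fell by 1.42, and SYK, the kinase downstream of the B cell receptor, by 1.32. The probes of MS4A1 (CD20) disagreed, with 1.16 for the brighter and -1.25 for the other, and those of FCRL3 with 1.00 and -0.89, so neither has a settled direction. Among 18 tested transcription factors of B and plasma cells, 8 rose (44.4%) and 5 fell (27.8%), beside 26.5% and 32.9% of all genes. EBF1, which sets B cell identity, rose by 1.68 ± 0.08 (adjusted p = 2.19e-13). IRF4, which drives plasma cell formation, rose by 1.01, while BACH2, its antagonist, fell by 1.17 (SE 0.27), with -2.08 by another probe.

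Genes of the integrated stress response were higher. Of 10 tested eIF2 kinases and stress transcription factors, 7 rose, all of them at least 2-fold, and 2 fell, with a median of 1.38. ATF5, a transcription factor translated when eIF2 is phosphorylated, read 11.39, 11.40 and 11.05 in untreated cells against 13.75, 13.80 and 13.54, groups without overlap, and differed by 2.42 ± 0.11 (adjusted p = 4.17e-13). Its relatives CEBPG and CEBPB rose by 1.56 and 1.52. Of 12 tested feedback genes, 7 rose and 1 fell. GDF15, a secreted stress hormone, rose by 2.72 ± 0.15, TRIB3, a pseudokinase that restrains ATF4, by 2.08 ± 0.09 and STC2, a secreted glycoprotein, by 1.69 ± 0.14.

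Some transcripts for amino acid supply were higher. Of 10 tested transporters, 5 rose and none fell, with a median of 0.32 that was below 0 with median scaling. SLC3A2, the shared heavy chain, rose by 2.02 ± 0.09, SLC7A1, which carries arginine and lysine, by 1.61 ± 0.10, and SLC7A5, which carries leucine and pairs with SLC3A2, by 1.32 ± 0.11. Of 14 tested synthesis enzymes, 6 rose (42.9%) and 5 fell (35.7%, near the 32.9% of all genes), with a median of -0.22. ASNS, asparagine synthetase, read 9.57, 9.38 and 9.44 against 11.33, 11.28 and 11.36 and rose by 1.86 ± 0.09 (adjusted p = 4.77e-13). PSAT1, of serine synthesis, rose by 2.38 ± 0.09, and its partner PHGDH by 0.95 ± 0.11. In the other direction CBS, which diverts homocysteine to cysteine, was undetected with MST-312 and at least 3.68-fold lower. Of 18 tested cytosolic tRNA synthetases, 9 rose and 5 fell, led by GARS1 for glycine (1.03) and SARS1 for serine (0.82) among the rises and RARS1 for arginine (-0.94) and QARS1 for glutamine (-0.92) among the falls.

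Genes of the ER unfolded protein response rose, 20 of 26 tested, 9 of them at least 2-fold, while 2 fell and 4 did not pass, for a median of 0.78. XBP1, whose spliced product is the transcription factor of the IRE1 branch, read 11.26, 11.13 and 11.05 against 12.94, 12.88 and 12.87, without overlap, and rose by 1.75 ± 0.10 (adjusted p = 9.73e-12), with 1.90 by another probe. DNAJB9, an ER co-chaperone, rose by 2.19 ± 0.07, EDEM1, which directs misfolded glycoproteins to degradation, by 1.63 ± 0.10 and HYOU1, a large ER chaperone, by 1.47 ± 0.17. EDEM2, a relative of EDEM1, fell by 0.66.

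Cytosolic chaperones moved the opposite way. Of 20 tested heat shock and chaperone genes, 14 fell, 6 of them at least 2-fold, 2 rose and 4 did not pass, for a median of -0.60. CHORDC1, a partner of HSP90, read 10.13, 10.15 and 10.41 against 8.69, 8.55 and 8.55 and fell by 1.63 (SE 0.11, adjusted p = 9.29e-11). HSPA4L, a nucleotide exchange factor of HSP70, was undetected with MST-312 and at least 2.64-fold lower. HSPA6, a strictly stress-induced HSP70, fell by 1.13 (SE 0.10), with -0.46 by another probe. The 2 that rose were HSPA1A, at 0.71 ± 0.29 (adjusted p = 0.0424), a call lost under several alternatives, and DNAJB6, at 0.66 ± 0.08, whose other probe gave -0.10.

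The promoters of these stress genes were searched in the same windows and on both strands. TGATGNAA, the composite element bound by C/EBP and ATF factors, was in 8 of the 29 genes that rose and had a window across the lists of the integrated stress response, amino acid supply and tRNA synthetases (27.6%), in 5 of the 25 other tested members and in 1.75% of the windows of genes tested (3.67% of all windows). The ER stress element, CCAAT and CCACG with any 9 bases between, was in 5 of 18 ER genes that rose (27.8%), in 2 of 6 others and in 0.170% of windows of genes tested (0.0806% of all). The heat shock element, GAA, TTC and GAA with any 2 bases between neighbours, was in 4 of 13 chaperone genes that fell (30.8%), in 1 of 6 others and in 0.315% (0.487% of all). The bases before the start of ASNS (chr7:97872409-97872578), XBP1 (chr22:28800570-28800739) and CHORDC1 (chr11:90223050-90223219), all on the minus strand, are shown as one called gene with a match from each list, with the match in capitals. In CHORDC1 the capitals are 3 overlapping matches.
ASNS: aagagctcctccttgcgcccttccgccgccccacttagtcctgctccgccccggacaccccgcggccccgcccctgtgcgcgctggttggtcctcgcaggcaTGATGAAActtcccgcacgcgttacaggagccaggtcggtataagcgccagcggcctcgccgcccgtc
XBP1: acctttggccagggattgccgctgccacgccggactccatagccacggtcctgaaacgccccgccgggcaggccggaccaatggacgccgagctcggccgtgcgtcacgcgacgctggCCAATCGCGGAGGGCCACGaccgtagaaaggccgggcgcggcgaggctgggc
CHORDC1: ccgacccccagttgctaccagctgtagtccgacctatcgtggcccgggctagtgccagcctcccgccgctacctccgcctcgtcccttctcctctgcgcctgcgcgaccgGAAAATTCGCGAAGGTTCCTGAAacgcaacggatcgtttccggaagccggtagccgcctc

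NF-kB genes and the early genes of growth signalling were higher. Of 20 tested NF-kB subunits and inhibitors, 15 rose and 1 fell, with a median of 0.54. NFKBID, a nuclear IkB protein, read 6.61, 6.69 and 6.56 against 8.68, 8.59 and 8.43 and rose by 1.95 ± 0.08 (adjusted p = 1.21e-13). BCL3, another nuclear IkB protein, rose by 1.75 ± 0.12 and NFKBIB, a cytosolic inhibitor, by 1.71 ± 0.16. The member that fell was IKBKG (NEMO), the scaffold of the kinase that frees NF-kB, by 1.05 (SE 0.09). Of 18 tested chemokine, cytokine and adhesion genes, 10 rose and 4 fell. CXCR5, the receptor that leads B cells into follicles, rose by 1.84 ± 0.21, and CXCL10, a chemokine, by 1.33 ± 0.16. CCL22 and CCR7, a chemokine and a homing receptor, fell by 1.75 and 1.26. A form of the kappaB site, GGGA and TTCC with any 2 bases between, was in 5 of 21 promoters of the members that rose in both lists (23.8%), in 3 of 10 others and in 1.65% of windows of genes tested.

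Immediate-early genes rose in 13 of 19 tested cases, 7 of them at least 2-fold, and 4 fell. FOS read 6.32, 6.72 and 6.10 against 8.59, 8.71 and 8.41, without overlap, and rose by 2.19 ± 0.14 (adjusted p = 5.83e-11). FOSB, a relative of FOS, rose by 1.77, JUN, with which FOS-type proteins form AP-1, by 1.53, and IER3, an early survival gene, by 1.63. KLF2, a factor of resting lymphocytes, fell by 0.69 and ZFP36L1, which destabilises AU-rich messages, by 0.99. The phosphatases and inhibitors that damp MAPK signalling rose in 13 of 17 tested cases, 8 of them at least 2-fold, with a median of 0.99. DUSP1, a MAPK phosphatase, read 7.95, 8.00 and 8.10 against 9.43, 9.43 and 9.54 and rose by 1.46 ± 0.09. SPRY2, an inhibitor of receptor kinase signalling, rose by 1.45 ± 0.12 and PIM2, a survival kinase counted in this list, by 1.33 ± 0.09.

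Probes for box C/D guide RNAs and spliceosomal small RNAs were brighter with MST-312. Of 101 tested box C/D small nucleolar RNAs, which guide methylation, 95 rose, 69 of them at least 2-fold, and none fell, with a median of 1.31. SNORD53 and SNORD71 were undetected in untreated cells and at least 8.13-fold and at least 5.81-fold brighter with MST-312. Of 66 tested box H/ACA and Cajal body RNAs, which guide pseudouridylation, 27 rose and 5 fell. SNORA57 read 7.83, 7.57 and 7.66 against 9.71, 9.78 and 9.60 and rose by 2.01 ± 0.09, SCARNA2 rose by 2.19 ± 0.15, and SNORA18 fell by 0.95. The spliced noncoding hosts of these RNAs were higher as well, 17 of 18 tested, with SNHG4 at 2.66, SNHG8 at 2.07 and SNHG1 at 1.98. Of 23 spliceosomal and other small RNAs 21 rose and none fell. RNU4-1, the U4 RNA of the spliceosome, rose by 2.42 ± 0.13 and RN7SK, which holds back the elongation kinase P-TEFb, by 2.05 ± 0.09, with 2.67 by another probe. Copies of these genes are nearly identical, so a probe can read several. Whether the probes read the mature small RNAs or longer transcripts that hold them was not tested.

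Ribosomal RNA probes moved with them. All 3 with a named gene rose, RNA28SN5 by 4.14 ± 0.28, RNA5S9 by 2.08 ± 0.09 and RNA18SN5 by 1.46 ± 0.54, and a second 28S probe gave 1.70. RNA28SN5 read 8.82, 8.60 and 9.17 in untreated cells against 13.10, 13.34 and 12.57. The part of ribosomal RNA carried into the labelled samples in the small RNA and histone values was not tested. Replication-dependent histone genes, whose transcripts normally end without a poly(A) tail, rose in 28 of 48 tested cases, 13 of them at least 2-fold, and 3 fell. H4C5 read 7.22, 7.20 and 7.52 against 11.61, 11.63 and 11.63. H2AC25 rose by 2.76 ± 0.11, and H2AC15, undetected in untreated cells, was at least 5.81-fold brighter. H4C3 went the other way, at -1.40 ± 0.18.

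By gene type, the rises were spread unevenly. Among protein-coding genes, 5.67% rose and 10.7% fell at least 2-fold. Among 217 long noncoding RNAs 23.0% rose and 2.76% fell, and among 154 genes annotated as small nucleolar RNAs 47.4% rose and none fell. Genes that make ribosomes moved far less than the guide RNA probes. Of 70 tested ribosome biogenesis factors 25 rose (35.7%) and 11 fell (15.7%), beside 26.5% and 32.9% of all genes, and none of those that rose reached 2-fold. Their median of 0.08 was below 0 with median scaling. The E-box CACGTG, which MYC and MAX bind, was in 10 of the 21 promoters of factors that rose (47.6%), in 14 of 41 others and in 10.7% of windows of genes tested. Of 75 cytosolic ribosomal protein genes 12 rose and 9 fell.

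**Figure D3:**
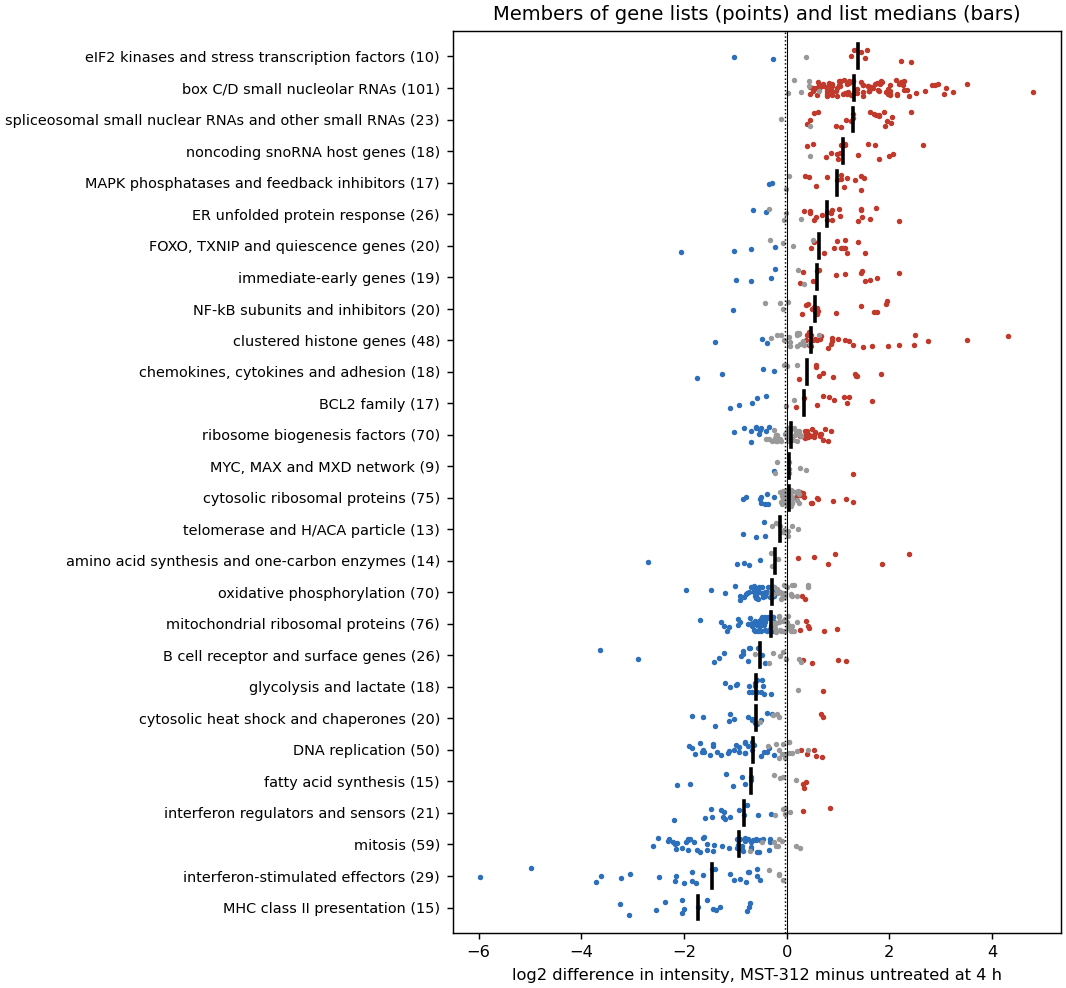
Log2 difference between MST-312 and untreated cells at 4 h for each tested member of 28 gene lists, with the number tested in brackets; red members were higher, blue lower and grey did not pass (limma adjusted p below 0.05), bars are list medians and the dotted line is the median of all genes, -0.04. The MHC class II list has the lowest median, -1.72, and the stress transcription factors the highest, 1.38.

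Genes of cell division were lower. Of 59 tested genes of mitosis 50 fell, 25 of them at least 2-fold, and none rose, for a median of -0.93. UBE2C, which hands ubiquitin to the anaphase-promoting complex, read 9.97, 9.99 and 9.82 against 7.57, 7.74 and 6.68 and fell by 2.60 (SE 0.19, adjusted p = 2.41e-10). NCAPG, a condensin subunit, read 8.15, 8.24 and 7.88 against 5.89, 5.75 and 5.69, no overlap, and fell by 2.31 (SE 0.13). CENPA, the histone of the centromere, and DLGAP5, a spindle protein, were undetected with MST-312 and at least 3.68-fold and at least 3.78-fold lower. TTTGAA, the cell cycle homology region, was in 29 of the 41 mitotic genes that fell and had a window (70.7%), in 6 of the 8 others, in 10.1% of windows of genes tested and in 15.4% of all. The bases before the start of NCAPG (chr4:17810809-17810978, plus strand) are shown as an example with the match in capitals.
NCAPG: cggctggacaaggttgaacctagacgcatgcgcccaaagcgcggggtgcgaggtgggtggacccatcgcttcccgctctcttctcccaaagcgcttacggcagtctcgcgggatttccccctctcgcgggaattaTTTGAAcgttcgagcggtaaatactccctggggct

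Replication genes were lower too. Of 50 tested, 31 fell, 15 of them at least 2-fold, and 5 rose, for a median of -0.66. GINS2, of the replicative helicase, read 9.50, 9.35 and 9.34 against 7.65, 7.68 and 7.16 and fell by 1.90 (SE 0.13, adjusted p = 1.14e-10). TK1, thymidine kinase, CDC7, the kinase that fires origins, and CDC45, a helicase subunit, were undetected with MST-312 and at least 2.63-fold, 2.80-fold and 2.41-fold lower. TTTCCCGC, an E2F site, was in 6 of 26 promoters of genes that fell (23.1%), in 5 of 18 others and in 2.71% of windows of genes tested. UHRF1, which keeps DNA methylation at replication, fell by 1.66 (SE 0.16). Of 32 repair and checkpoint genes 19 fell and 2 rose, and FANCI, of the Fanconi pathway, was undetected with MST-312 and at least 1.97-fold lower.

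The G1/S regulators did not move one way. Of 24 tested, 7 rose (29.2%) and 9 fell (37.5%), near the 26.5% and 32.9% of all genes, with a median of 0.01 whose sign changed with the scaling. CDC25A, the phosphatase that activates CDK2, fell by 1.27 and CDK6, the partner of D-type cyclins, by 1.25 (SE 0.10, adjusted p = 2.58e-09), while CCND3, such a cyclin, fell by 0.86. CDKN2D (p19), an inhibitor of CDK4 and CDK6, rose by 1.76 ± 0.10, and E2F6, a repressor, by 1.03 ± 0.11. Genes of the telomerase particle, the subject of the inhibitor, changed little. Of 13 tested, 4 fell (30.8%, near the 32.9% of all genes) and none rose, none of them 2-fold. NHP2, which sits on the telomerase RNA, fell by 0.60 (SE 0.09), the assembly ATPases RUVBL1 and RUVBL2 by 0.85 and 0.44, although other RUVBL1 probes gave -0.96 and 0.63 and so went both ways, and SHQ1, an assembly factor, by 0.41 (adjusted p = 0.0343), a call lost under several alternatives. Of 10 tested genes that cap telomeres, 3 rose (30%, near the 26.5% of all genes) and 1 fell (10%, beside 32.9%). TERF2 and TERF2IP (RAP1), of shelterin, rose by 0.61 and 0.75, the first no longer called with median scaling (0.26), and STN1, which recruits fill-in synthesis, fell by 1.40 (SE 0.16), with -0.29 by another probe.

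Most genes of glycolysis were lower, while fatty acid synthesis genes went both ways and most cholesterol genes did not pass. Of 15 tested fatty acid synthesis genes 8 fell, 4 of them at least 2-fold, and 3 rose. ACACA, acetyl-CoA carboxylase, which commits carbon to fatty acids, read 10.22, 10.20 and 10.08 against 8.22, 7.97 and 7.93 and fell by 2.13 (SE 0.09, adjusted p = 8.55e-14), with -1.92 by another probe. ACLY, which makes cytosolic acetyl-CoA, fell by 1.05, and ACACB, the mitochondrial carboxylase, was undetected with MST-312 and at least 2.01-fold lower. Cholesterol genes did not follow, with 6 of 19 higher (31.6%, near the 26.5% of all genes), 1 lower (5.26%, beside 32.9%) and 12 that did not pass. Their median of 0.14 was below 0 with median scaling. INSIG1, which restrains the sterol sensor, rose by 0.95 ± 0.12 and by 3.47 on another probe. Glycolysis had 16 of 18 tested genes lower and 1 higher. PFKL and PKM, of the phosphofructokinase and pyruvate kinase steps, fell by 1.20 and 1.10, and the one that rose was the glucose carrier SLC2A1, by 0.70 ± 0.10.

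Mitochondrial genes fell by small amounts in large numbers. Of 70 tested genes of oxidative phosphorylation 42 fell and 2 rose, with a median of -0.29, and of 76 mitochondrial ribosomal proteins 46 fell and 6 rose, with a median of -0.30. UQCRC2, a core subunit of complex III, fell by 1.96 (SE 0.13) and MRPL23, of the large mitochondrial subunit, by 1.69 (SE 0.15). Of 39 tested proteasome subunits 17 fell and 5 rose, with PSMD1, of the regulatory particle, at -1.85 and PSMA2, of the core, at -1.37. PAOX, which oxidises acetylated polyamines, fell by 2.86 (SE 0.17), and its other probes gave -1.93 and -0.37. In nucleotide synthesis 10 of 22 fell and 2 rose, with the purine salvage enzyme APRT at -1.21. GART, a purine synthesis enzyme, had probes in both directions, from -1.13 to 0.77.

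Genes of death, rest and metal handling were mixed. In the BCL2 family 10 of 17 tested members rose and 5 fell. The killers HRK, BMF and BCL2L11 (BIM) rose by 1.66, 1.21 and 1.12, the protector BCL2L2 rose by 1.18, and the killers BID and BAX fell by 1.11 and 0.92. Of 21 tested genes of the p53 pathway 9 rose, 2 fell and 10 did not pass. AEN, a nuclease, rose by 1.09 ± 0.09, and RRM2B, a nucleotide reductase subunit, by 1.21 on its brighter probe, with -0.33 on the other. Of 20 tested FOXO and quiescence genes 12 rose and 4 fell. TXNIP, which restrains glucose uptake, read 11.53, 11.22 and 11.44 against 12.99, 12.97 and 12.80 and rose by 1.52 ± 0.11, FOXO3 rose by 1.38 ± 0.09, and SESN3, a FOXO target that restrains mTORC1, fell by 2.05 (SE 0.11). TFRC, the transferrin receptor, rose by 2.15 ± 0.07 and SLC11A2, the endosomal iron carrier, by 1.77 ± 0.10, whereas the metallothioneins MT2A and MT1X differed by -1.48 and -0.99. Among NRF2 genes 6 of 16 rose and 4 fell, with SQSTM1, an autophagy receptor, at 1.29 and HMOX1, heme oxygenase, at -1.10. Of 14 tested targets of the hypoxia-inducible factors 8 rose and 2 fell, with VEGFA, the vessel growth factor, at 1.43, the peptide hormone gene ADM at 1.26 and NDRG1 at -1.30.

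Most genes with a 2-fold difference at 4 h were also called in the same direction at 0 h and 8 h, in other arrays of the series. The calls at those times used an adjusted p below 0.05 with no limit on fold. Of the 717 genes 2-fold higher at 4 h, 662 were called higher at 0 h and 693 at 8 h, and of the 1053 lower, 951 and 987 were called lower. In the opposite direction 13 of the higher and 2 of the lower genes were called at 0 h, and 0 and 4 at 8 h. The shares of all genes called at those times are not given here. The size of the difference was tested as a contrast between times. At an adjusted p below 0.05 and a shift of at least 1, the signed difference was larger (more positive) at 4 h than at 0 h in 248 genes (2.42%) and smaller in 234 (2.28%), and against 8 h it was larger in 48 (0.468%) and smaller in 134 (1.31%). Without background correction these counts were 82 and 53 against 0 h and 4 and 43 against 8 h, and with the authors' deposited values 90 and 60, and 7 and 47. At the adjusted p alone, 22.7% of all genes differed from 0 h and 9.89% from 8 h. Both contrasts share the 4 h arrays and the lists of genes are not independent. In 16 genes the difference was larger at 4 h than at both neighbouring times and in 58 it was smaller.

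In most of these 74 genes it was the untreated cells whose 4 h level departed most from the mean of 0 h and 8 h. This scores a peak or dip at 4 h, and a steady rise or fall scores little. With MST-312, E2F2 went from 9.33 at 0 h to 8.27 at 4 h and 7.02 at 8 h. Genes already near background with MST-312 could show no further fall. In the 58, the untreated 4 h level stood 1.37 (median, log2) above the mean of the untreated 0 h and 8 h levels. The MST-312 level stood at -0.10 by the same measure, and the untreated departure was larger in 51 of 58. In the 16, the medians were -1.15 and 0.16, and the untreated departure was larger in 12. The genes were chosen by the contrasts, so these counts describe them. ANTXR1 is the clearest case. In untreated cells it stood at 5.10 ± 0.08 (SD, n = 3) at 0 h, 9.08 ± 0.07 at 4 h, 7.55 ± 0.08 at 8 h and 5.04 ± 0.13 at 24 h, and with MST-312, where it was undetected on all 3 arrays, the measured value was 4.93 ± 0.09 at 4 h. A dimmer probe that no group detected on all arrays gave 0.15 at 4 h. ITGAV, an integrin chain, went from 6.97 ± 0.16 to 9.03 ± 0.24 and back to 6.75 ± 0.27 in untreated cells, against 7.67, 7.91 and 8.16 with MST-312. CRIP2, a LIM-domain protein, and TM6SF1, a lysosomal membrane protein, peaked at 4 h in untreated cells likewise, at 8.64 ± 0.19 and 9.74 ± 0.08. CDH1 (E-cadherin) rose there from 4.85 to 6.89 and measured 5.23, undetected, with MST-312 at 4 h.

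Among the 16 genes with a larger difference at 4 h, RASGRP1 and EBF1 had their lowest untreated level at that time, whereas CDKN2D stayed low afterwards. RASGRP1, which activates RAS downstream of antigen receptors, went from 9.05 ± 0.12 at 0 h to 5.52 ± 0.23 at 4 h, where it was undetected, and 6.14 ± 0.30 at 8 h in untreated cells, and from 8.19 ± 0.01 to 7.36 ± 0.23 and 6.09 ± 0.13 with MST-312. EBF1 fell in untreated cells from 9.49 ± 0.09 to 7.20 ± 0.04 and returned to 8.29 ± 0.12, while with MST-312 it went from 9.56 to 8.88 and 8.51. CDKN2D went from 9.94 ± 0.10 to 7.30 ± 0.08 in untreated cells and remained at 7.67 at 8 h and 7.26 at 24 h, while with MST-312 it went from 9.63 ± 0.13 to 9.06 ± 0.09, 8.41 and 8.21. Other members were the phosphatase PTPRC (CD45), the MAPK phosphatase DUSP5 and the cell cycle factor E2F2. PSAT1 passed the test against 8 h alone, by 2.03 ± 0.12 (adjusted p = 2.87e-09). ACACA passed it against 0 h, by -2.10 ± 0.13 (adjusted p = 5.24e-10), since its untreated level rose from 8.51 ± 0.13 to 10.17 ± 0.07 and its MST-312 level did not.

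**Figure D4:**
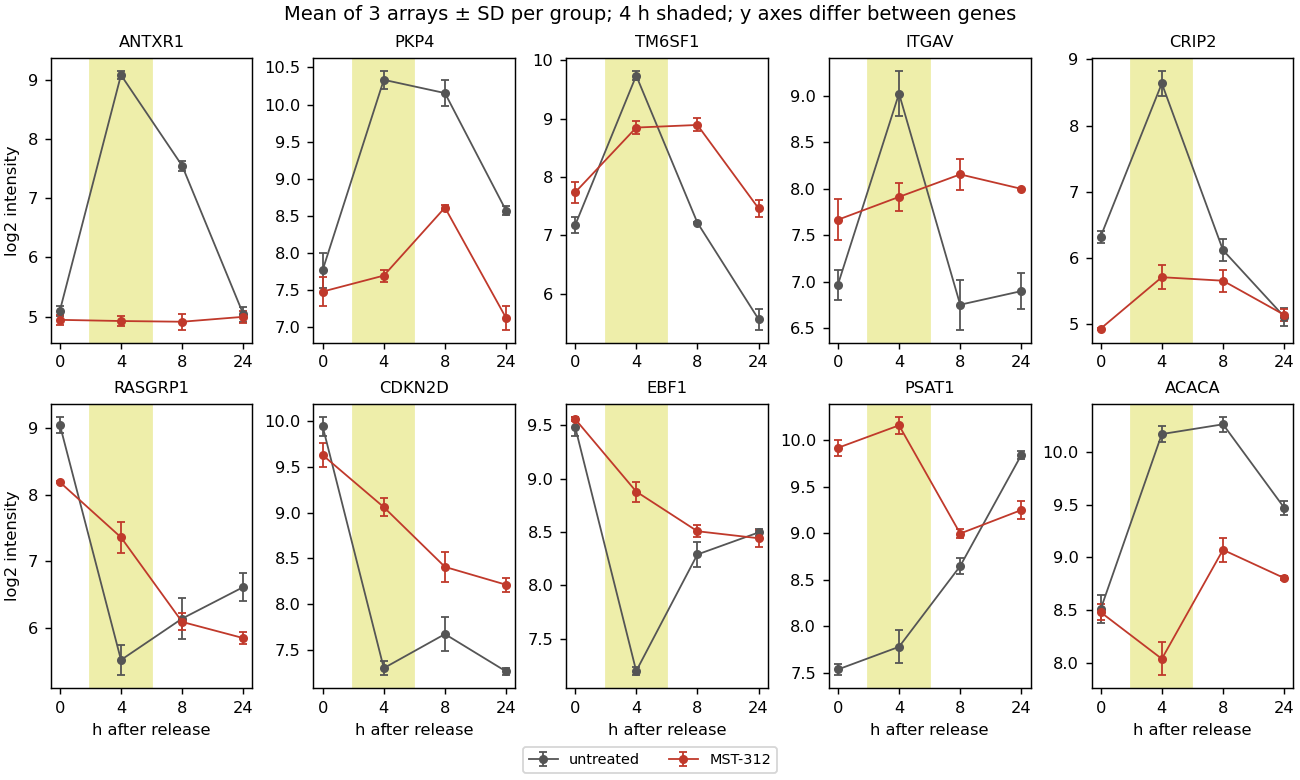
Mean log2 intensity ± SD of 3 arrays in untreated (grey) and MST-312 (red) cells 0, 4, 8 and 24 h after release for 10 genes, with 4 h shaded, the times drawn evenly spaced and vertical axes that differ between genes. Untreated ANTXR1 peaked at 9.08 at 4 h and untreated RASGRP1 and EBF1 dipped to 5.52 and 7.20, away from the MST-312 cells.

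The genes with a smaller difference at 4 h than at both other times were long. RefSeq gives the 58, all protein-coding, a median length of 88.2 kb with introns (quartiles 45.5 and 219 kb), beside 28.1 kb (11.4 and 64.4 kb) for the 9610 protein-coding genes tested. The 16 genes with a larger difference at 4 h, all protein-coding too, had a median of 35.0 kb (quartiles 23.3 and 132 kb). Length was not used to choose either set. Among genes 2-fold lower at 4 h the median was 36.8 kb and among those 2-fold higher 21.8 kb. By length, 8.28% of genes under 10 kb, 15.1% of those from 100 to 300 kb and 22.7% of the 233 genes of 300 kb or more were 2-fold lower, while 7.67%, 4.58% and 4.72% were 2-fold higher. The median difference at 4 h was -0.01 under 10 kb, -0.20 from 100 to 300 kb and -0.32 at 300 kb or more. The shortest and the longest genes stood at -0.09 and -0.09 at 0 h, at -0.05 and -0.27 at 8 h and at -0.02 and -0.24 at 24 h, so lower values for the longest genes were not limited to 4 h. The gap between the longest and the shortest genes at 4 h lay between -0.43 and -0.16 in the 16 alternative settings that alter the 4 h difference, with the smallest gap when no background was subtracted. The other 22 settings leave it as it is.

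**Figure D5:**
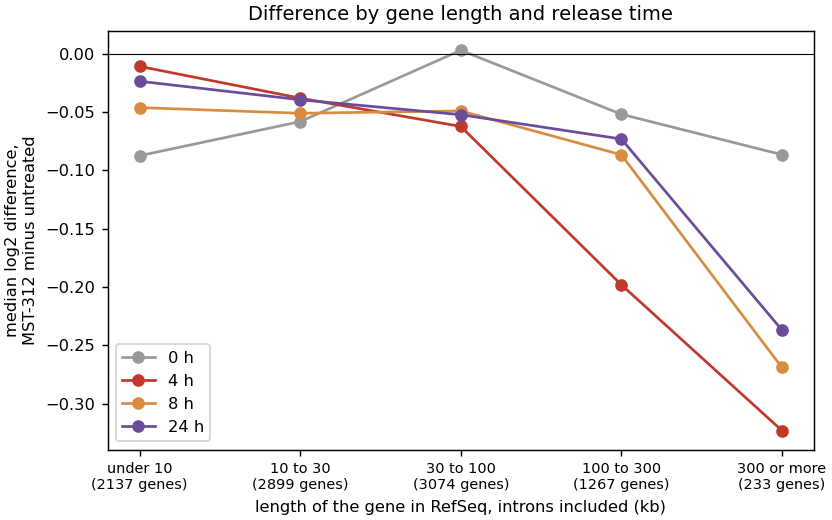
Median log2 difference between MST-312 and untreated cells for protein-coding genes in 5 classes of gene length (kb, introns included), 1 line per time after release. At 4 h the median goes from -0.01 under 10 kb to -0.32 at 300 kb or more. The longest genes also stand lowest at 8 h (-0.27) and 24 h (-0.24), while at 0 h both ends stand at -0.09.

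Markers of other cell types were few. Of 9 T cell markers with a probe, 1 was detected on all 3 arrays of a group, CD3G in untreated cells, and 4 of 10 monocyte and macrophage markers were (CD14, CD68, FCGR3A and LYZ), none of which passed the test. Of 10 epithelial and fibroblast markers EPCAM, CDH1 and COL1A1 were detected in a group. EPCAM read 7.09, 6.74 and 6.61 against 9.14, 9.45 and 9.19 and rose by 2.44 ± 0.11 (adjusted p = 1.34e-13), whereas CDH1 was at least 2.00-fold lower. The summed linear signal of the 4 tested epithelial and fibroblast markers lay between 296 and 345 in untreated cells and between 723 and 850 with MST-312, while KRT8, KRT18, KRT19, COL1A2, DCN and LUM did not pass the detection filter. The summed signal of the 4 tested monocyte markers lay between 952 and 1564 against 1352 and 1577, and that of the 2 tested T cell markers, CD3G and CD2, between 113 and 169 against 85.4 and 100.4. That of the 7 tested B cell markers lay between 102549 and 111650 in untreated cells and between 79924 and 85343 with MST-312, ranges that did not overlap. The sum weighs bright members most. Of these the class II genes CD74 and HLA-DRA went from 15.06 to 13.75 and from 15.20 to 14.46 (log2), while CD79B went from 14.01 to 14.50. Counted singly, 3 of the 7 rose and 2 fell, with a median difference of 0.24 whose sign changed with median scaling. The part of these markers in the other results was not tested.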

How the data were processed

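Total RNA from 24 P493 samples (8 groups of 3) was extracted with Trizol, cleaned with DNase treatment and labelled with an Ambion MessageAmp kit for Illumina arrays, per the labels' protocols. The deposited table holds raw intensity and detection p-values of 47322 probes, per the file headers. A deposited value table of the same arrays served as an alternative, after log2, and the authors' steps behind it are not given in the sources used here. Intensities were background-corrected from the detection p-values (limma 3.58.1 in R 4.3.3, neqc, offset 16), quantile-normalized over all 24 arrays and put on the log2 scale. The deposited detection p-value had to be below 0.05 on 3 arrays of a group, which 17882 probes passed. Of all probes, 30113 carried 1 gene symbol, 8 several and 17201 none in the platform annotation, and none was named from several. The brightest passing probe stood for each of 10246 genes, 2603 of which had others. A model of 8 group means over all 24 arrays (16 residual degrees of freedom) gave the 4 h difference and its contrasts with 0 h and 8 h, with Benjamini-Hochberg adjustment. The fit was tested on simulated data.

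The members and lists were chosen with earlier results of these data known. The text names MYC, MAX and TERT, the 12 largest rises and falls without overlap, up to 4 called members per list in its main direction and up to 2 in the other with at least 0.58, and the 6 largest shifts per contrast and direction; a part of these is given. Same-numbered arrays at 4 h deviated together (r = 0.215, 0.194 and 0.217), and at all times every pair was above 0.1 (lowest 0.110), so the numbers in the labels may pair the samples. The model behind the reported differences, SEs and p-values did not use this pairing. It entered only through the replicate blocks among the alternatives. Alternatives were no background correction, median scaling, cyclic loess, the deposited values, an offset of 50, other filters, the mean of probes, the 4 h arrays alone, array weights, a trended robust prior, replicate blocks and leaving out each array. Chip and scan identity were not analysed here. The number of arrays limits the precision. Promoters and gene lengths are from RefSeq (GRCh38.p14).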

Additional observations from a re-analysis of the deposited data

Results flagged for a closer look

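The effect of MST-312 differed between 4 h and another time, by a tested contrast with a shift of at least 1 (log2) and a limma adjusted p below 0.05, in the named genes given here. Each value is the difference at 4 h minus that at the other time. At 4 h IFI44L, ANTXR1, MEF2C, CDH1, PITPNC1 and ABAT were undetected on all 3 MST-312 arrays and RASGRP1 on all 3 untreated arrays, so their shifts rest on values not above background and are not exact sizes. WNT10A, IFI44, EHBP1, BACH2, BLM and CRIP2 were detected on only some arrays of a 4 h group.

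Against 0 h the shift was positive for several genes of the interferon response. Those given here were lower with MST-312 at both times, and their measured falls were smaller at 4 h. The median over the 29 tested effectors was -2.85 at 0 h and -1.45 at 4 h. In untreated cells IFIT1 went from 12.24 at 0 h to 9.82 at 4 h, against 7.61 and 7.65 with MST-312. IFIT1 shifted by 2.46, MX1 by 2.40, IFI44 by 1.47, EIF2AK2 by 1.15, PARP9 by 1.13 and IFI44L by 1.04. Signalling and stress genes that were higher with MST-312 at 4 h shifted upward too, CCL3 by 1.93, PPP1R15A by 1.72, FOS by 1.15, SPRY2 by 1.12, DUSP1 by 1.07, BCL3 by 1.03 and NFKBID by 1.02. In each of these the untreated level fell from 0 h to 4 h by more than the MST-312 level changed. Untreated FOS went from 7.53 to 6.38, against 8.57 and 8.57 with MST-312. Untreated CCL3 went from 8.94 to 7.04, against 8.35 and 8.38. NQO1, a quinone reductase, shifted by 1.07, TXNIP by 1.38 and its relative ARRDC3 by 1.39. The metallothionein MT2A, lower with MST-312 at both times, shifted by 1.27. LFNG, which modifies Notch and was also lower at both times, shifted by 2.51, WNT10A by 1.57 and the B cell factor SPIB by 1.35. CCL3, NQO1 and SPIB were lower with MST-312 at 0 h (-0.59, -0.39 and -0.57) and higher at 4 h.

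Downward shifts against 0 h were seen for ACACA (-2.10), SMAD9 (-2.08), SESN3 (-1.55), CHORDC1 (-1.42), HSPH1 (-1.35), MSMO1 (-1.35), BACH2 (-1.34), CDK6 (-1.33), BLM (-1.24), MEF2C (-1.18) and SESN1 (-1.13). Of these SMAD9, a signal carrier of bone morphogenetic proteins, did not differ measurably at 4 h itself (0.10, adjusted p = 0.561). MSMO1 was higher with MST-312 at both times, at 11.16 against 9.10 at 0 h and 11.11 against 10.39 at 4 h.

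Several genes shifted against both times. ANTXR1 gave -4.00 against 0 h and -1.52 against 8 h, EHBP1 -2.79 and -1.04, PKP4, a junction protein, -2.35 and -1.10, and PITPNC1, a lipid carrier, -2.15 and -2.02. ITGAV gave -1.81 and -2.52, ABAT, which degrades GABA, -1.67 and -2.05, LGR6, an R-spondin receptor, -1.65 and -2.46, and CDH1 -1.64 and -1.52. CRIP2 gave -1.54 and -2.47, TM6SF1 -1.45 and -2.56, and FCRL4 -1.38 and -1.35. In the upward direction RASGRP1 gave 2.69 and 1.89, CDKN2D 2.07 and 1.03, EBF1 1.61 and 1.46, WFS1, an ER membrane protein, 1.26 and 1.83, and E2F2 1.01 and 1.67. IFI44 gave -1.18 against 8 h, the opposite sign of its shift against 0 h. Against 8 h alone, PSAT1 shifted by 2.03, HMCES, which shields abasic DNA, by 1.63 and the chemokine CXCL16 by -2.15.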

How the results depend on the processing

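Without background correction the 2-fold counts were 305 higher and 448 lower, with 82 larger and 53 smaller differences than at 0 h and 4 and 43 against 8 h. With the authors' deposited values they were 341 and 497, 90 and 60, and 7 and 47; these values lie near the uncorrected ones and are not a separate check. An offset of 50 gave 140 and 136 against 0 h and 23 and 75 against 8 h, and a smaller fold follows from the added offset. Median scaling gave 1430 higher genes at adjusted p below 0.05, 410 and 1710 at 2-fold (19.3% higher, against 40.5%), and 163 larger and 321 smaller differences than at 0 h. With the replicate number as a block within time 2974 genes were higher and 3588 lower (2866 and 3517 over all arrays), and among the named genes the block changed the call of SHQ1 alone (adjusted p = 0.0553). Leaving out each array in turn gave 2488 to 2731 higher, 3121 to 3382 lower, 710 to 747 2-fold higher and 1037 to 1102 2-fold lower genes. ANTXR1 turned to 0.153 without a detection filter, where a dimmer probe stands for it, and MS4A1 to -0.046 and RAD51C to -0.52 with the mean of probes. Other named calls were lost for HSPA1A (0.33 uncorrected, 0.50 without replicate 1 of the untreated arrays), ABAT (-0.02 uncorrected), TCF3, CXCL16 and WFS1 (0.33, 0.38 and 0.30 with median scaling), and FCRL3 and GART (0.06 and -0.01 with the mean of probes). SHQ1 gave -0.26 without replicate 1 of the MST-312 arrays. Median scaling changed the sign of the median of 13 of 52 lists, among them the transporters, p53, NRF2, BCL2, shelterin, cholesterol and splicing lists. Weak signals limit the differences of dim genes, since 148 genes were undetected on all 6 arrays.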

Other observations

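Genes of RNA handling and translation moved in both directions. Of 61 tested splicing factors 19 rose and 12 fell, shares near those of all genes (26.5% and 32.9%) or below. SNRPA, a protein of the U1 spliceosomal particle, read 9.06, 8.90 and 8.89 in untreated cells against 11.09, 10.99 and 11.00 and rose by 2.08 ± 0.09 (limma adjusted p = 8.06e-14). SRSF1, which selects splice sites, rose by 0.89 ± 0.10, and HNRNPF and HNRNPL, which bind pre-mRNA, differed by -0.97 and -0.95. Of 60 tested translation factors 18 rose and 10 fell. EIF1, which guards start codon choice, rose by 1.63 ± 0.10, from 12.07, 11.99 and 11.73 to 13.66, 13.49 and 13.53. EEF1AKMT1, a methyltransferase of the elongation factor eEF1A, was undetected with MST-312 and at least 6.81-fold lower.

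Autophagy and lysosome genes rose in 13 of 29 tested cases (44.8%) and fell in 6 (20.7%), beside 26.5% and 32.9% of all genes. FNIP1 and RRAGC, which report nutrients at the lysosome, rose by 1.14 and 1.10, while ATG7, which drives the conjugation steps of autophagy, differed by -1.52 ± 0.20 and ATP6V0D1, of the lysosomal proton pump, by -1.12 ± 0.10. Of 32 tested genes of mitochondrial import and folding 8 rose (25%) and 11 fell (34.4%), near the 26.5% and 32.9% of all genes. CLPX, a matrix unfoldase, rose by 1.04 ± 0.10, and TOMM40L, an outer membrane channel protein, was undetected with MST-312 and at least 2.58-fold lower. Among DNA methylation and Polycomb genes 5 of 12 fell (41.7%, beside 32.9% of all genes) and 1 rose (8.33%, beside 26.5%). The one that rose was RBBP4, a histone-binding subunit, by 1.53 ± 0.08, with 0.21 and 0.41 by its other probes.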
